A study of Rattus norvegicus with 6 samples.

Results

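The hypoxia-inducible factors (HIFs) are known to activate many genes outside the glycolytic pathway, and 10 of them were examined, namely Vegfa, Adm, Bnip3, Egln1, Egln3, Ndrg1, Ddit4, P4ha1, Kdm3a and Pdk1. They were listed by name because response to hypoxia is a theme of the study of these libraries, so the choice is not independent of these data, and a gene was a member when its symbol in the count table equalled a listed name. Of the 10 names, 9 matched a row among the 20609 genes of the table, and 8 had enough counts for a test among 12624 genes tested. Egln1 matched no row and was not analysed here, and Egln3 was close to 0 in every library.

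Poly-A RNA was sequenced from 6 libraries of cells that the study names as the rat cell line PC12. That line was derived from a pheochromocytoma, a tumor of the adrenal medulla. Of these, 3 libraries came from cells that received a control plasmid (control) and 3 from cells that received a plasmid for overexpression of PCBP-1 (PCBP1-OE), a poly(C)-binding protein. The study's methods name an EGFP-tagged PCBP-1 plasmid that was transfected with Lipofectamine-2000, and describe neither the control plasmid nor the share of cells transfected. No library was labelled as hypoxic, so the members were read at the oxygen level of ordinary culture. The study also describes the cells as stably overexpressing PCBP-1, and states a harvest time after transfection for RT-qPCR. It reports higher PCBP-1 mRNA by RT-qPCR and higher protein by western blot. The PCBP-1 gene itself was not analysed here, which leaves the overexpression unchecked in these counts.

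HIFs are transcription factors made of an alpha subunit, such as Hif1a, and the beta subunit Arnt. With oxygen present, prolyl hydroxylases of the Egln family mark the alpha subunit, the Vhl ubiquitin ligase complex then binds it, and it is degraded. When oxygen falls the alpha subunit accumulates and the dimer binds a short core motif in DNA, and because this control acts mainly on the protein, mRNA levels of the subunits are not a measure of HIF activity. The targets outside glycolysis serve blood vessel growth (Vegfa, Adm), removal of mitochondria (Bnip3), restraint of mTOR (Ddit4), collagen hydroxylation (P4ha1), histone demethylation (Kdm3a), diversion of pyruvate from the mitochondria (Pdk1) and feedback on HIF (Egln1, Egln3).

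The core motif bound by HIF is the sequence feature that known direct targets share, so it was searched for in the RefSeq promoters of the members (GRCr8), from 250 bases before to 50 after each annotated start. The motif was taken as ACGTG or GCGTG on either strand, and overlapping matches, such as those within CACGTG, were counted once. Of the 9 members with a promoter in the table, 6 had at least 1 match. A match lay in 6 of their 11 promoters, beside 41.6% of all 33469 promoters. With so few promoters this share is near the background. One match for each of these 6 members is given 5′ to 3′ on the strand of the gene, with the match in capitals and 10 bases on each side.
Bnip3, chr1:203155046-203155071, minus strand: gcacgcgccgCACGTGccacacgcgc
Egln1, chr19:69804665-69804689, minus strand: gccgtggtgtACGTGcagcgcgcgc
Ddit4, chr20:28437161-28437185, minus strand: aacgttgcgaACGTGcgcccggtgc
P4ha1, chr20:27844937-27844961, plus strand: ctgcgtcctcGCGTGggccagcctg
Kdm3a, chr4:105233308-105233332, minus strand: gggaggctgtGCGTGtcttgtgtga
Pdk1, chr3:77113534-77113558, plus strand: ccacgtcccgCACGTagagcccggg

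The match shown begins 99 bases before the annotated start in Bnip3, 138 in Ddit4, 99 in P4ha1 and 211 in Kdm3a. In Egln1 it begins at base 3 after the start and in Pdk1 at base 31. Bnip3 had 3 separate matches in this window, P4ha1 3, Pdk1 4, Egln1 2 and Ddit4 2. These 5 of 9 members had 2 or more matches, beside 16% of all promoters. That share is above the background, unlike the share with at least 1 match, and the difference was not tested. The promoters of Vegfa, Adm and Egln3 held none of these letters in the window, and no promoter of Ndrg1 was matched. A match is only a run of letters, and binding was not measured.

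The libraries held 19730209 to 22315623 counts on genes, and values below are CPM (a gene's share of the library's counts, scaled by the TMM method), which compare libraries for 1 gene but not different genes. Mitochondrially encoded genes took 7.99% to 8.42% of counts in controls and 7.53% to 8.21% in PCBP1-OE. Markers of the chromaffin cell were checked against the cell label. Th, which makes the first step of catecholamine synthesis, had 141 to 185 counts per library, but Ddc, Dbh, Chga, Chgb and Pnmt had 0 to 9. The 7 chromaffin markers matched summed to 8.47 to 9.87 CPM in controls and 8.62 to 9.90 CPM in PCBP1-OE. Apart from Th and Slc18a1, none of them had enough counts for a test, so these markers do not bear out the PC12 label. The identity of the cells was not tested further. A glial list of 5 genes summed to 620 to 664 CPM in controls and 587 to 606 CPM in PCBP1-OE, mostly from Sox10 and S100b, and none of its genes passed the test. Lists of 6 leukocyte, 5 fibroblast and 4 endothelial markers, of which 4, 3 and 3 were matched, also had no gene that passed. The leukocyte sum was 6.82 to 7.76 CPM in controls and 6.13 to 6.22 CPM in PCBP1-OE, and the endothelial sum 4.07 to 5.62 and 4.95 to 5.90 CPM. The sum of the fibroblast list was 224 to 229 and 199 to 211 CPM, nearly all of it from Pdgfra. Col1a1 had means of 3.16 CPM in controls and 3.38 CPM in PCBP1-OE, and Dcn had 0 to 5 counts per library. This sum was therefore not read as fibroblast content. The part of the lower sums of the glial, leukocyte and fibroblast lists in the members' values was not tested. In such bulk libraries, fewer cells of a type and less RNA per cell cannot be told apart.

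None of the 8 members tested passed an adjusted p of 0.05 between PCBP1-OE and control in edgeR (quasi-likelihood test, with p adjusted over all genes by Benjamini-Hochberg), and 9.45% of all genes tested did. None met the study's rule of an adjusted p of 0.05 and a 2-fold change either, which 24 genes, or 0.190% of all genes tested, met. The study reports more genes at these cut-offs, so its calls and those here are not the same. It lists response to hypoxia and HIF-1 signaling among the terms of its up-regulated genes. Those terms rest on the study's own set of genes, and the genes behind them were not examined here. Other tools gave the same count of 0 among the 8 members, with 13.3% of all genes called by DESeq2, 9.48% by limma-voom and 12.6% by edgeR's exact test. At an unadjusted p under 0.05 there were 3 members, Kdm3a, Vegfa and P4ha1, and 28.4% of all genes tested, so this share was near the background. With 8 genes a count of 0 is also near the background, and the size of the differences says more. The log2 fold changes of the 8 members ran from -0.0525 for Adm to 0.17 for Kdm3a, with 7 above 0 and 1 below, and their median was 0.052 beside 0.0029 for all genes tested. All 8 intervals (95%) lay between -0.19 and 0.29 on the log2 scale, far inside a 2-fold change, and the highest bound corresponded to 22.5% more mRNA.

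**Figure D1:**
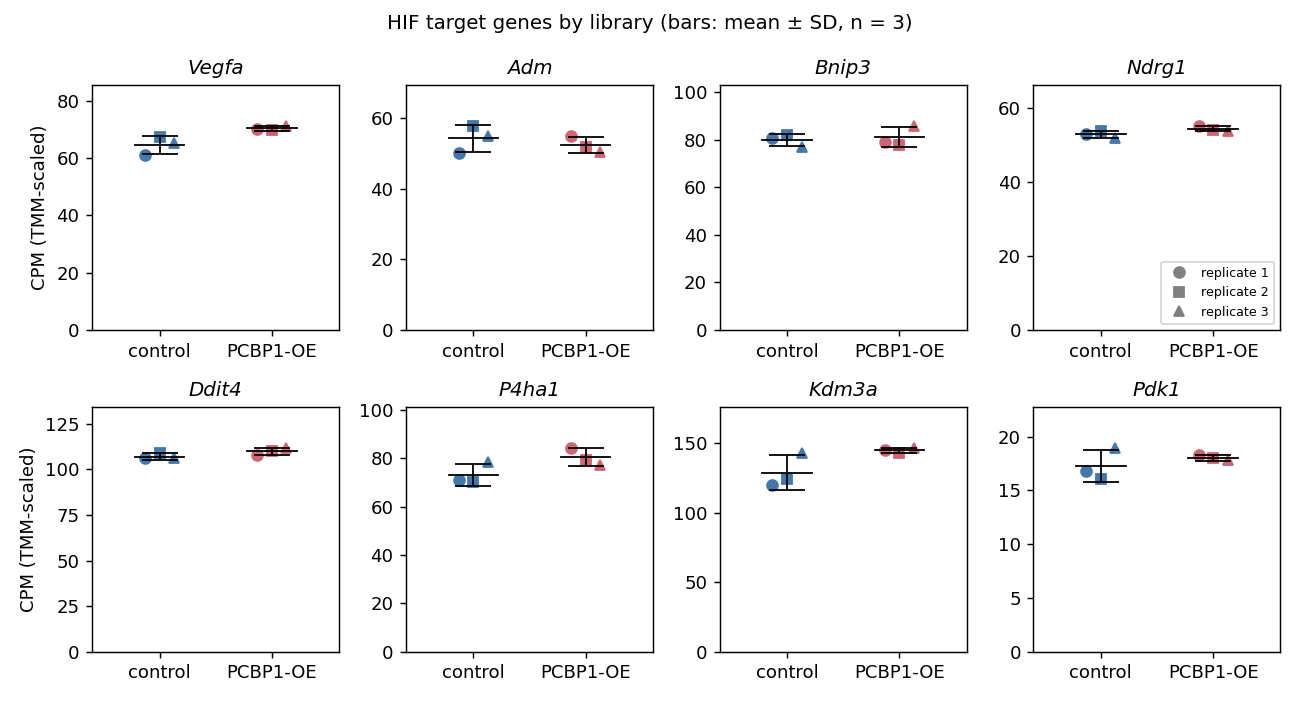
CPM (TMM-scaled) of the 8 members tested in each of the 3 control (blue) and 3 PCBP1-OE libraries (red), with the mean and SD in black; each vertical axis starts at 0. The groups lie at nearly the same height in every panel, and the control libraries of Kdm3a spread from 120 to 143 CPM while its PCBP1-OE libraries lie between 143 and 147 CPM.

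The secreted ligands were Vegfa, the main growth factor of blood vessels, and Adm, a vasodilating peptide first found in pheochromocytoma. Vegfa was at 61.1, 67.2 and 65.2 CPM in controls and at 69.9, 69.8 and 71.2 CPM in PCBP1-OE, from 1198 to 1541 counts per library. Every PCBP1-OE library lay above every control, although the means differed by less than the range of the controls. On the log2 scale Vegfa differed by 0.12 (SE, the standard error, 0.05; 95% interval 0.015 to 0.23, adjusted p = 0.126, edgeR quasi-likelihood). Adm was at 50.2, 57.8 and 54.8 CPM in controls and at 54.8, 51.7 and 50.5 CPM in PCBP1-OE. The groups overlapped, with the lowest and the highest library both among the controls. The fold change was -0.0525 on the log2 scale (SE 0.06, 95% interval -0.19 to 0.08), and edgeR gave an adjusted p of 0.617.

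Kdm3a, a demethylase of histone H3 lysine, had the largest difference and the lowest adjusted p of the members. It was at 120, 124 and 143 CPM in controls and at 145, 143 and 147 CPM in PCBP1-OE, with means of 129 ± 12.0 and 145 ± 1.80 (SD, n = 3 each). Control replicate 3 nearly reached the PCBP1-OE libraries, and the other controls lay well below them. The log2 fold change was 0.17 (SE 0.06, 95% interval 0.04 to 0.29), a difference of 12.2%, and the adjusted p was 0.0846 by edgeR's quasi-likelihood test. Without control replicate 3 the log2 fold change was 0.25 and the adjusted p 0.00169, in a fit that called 22.3% of all genes. Without either other control, or without any single PCBP1-OE library, the adjusted p was 0.179 to 0.313.

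P4ha1, the catalytic subunit of the collagen prolyl hydroxylase, was at 70.9, 70.4 and 78.3 CPM in controls and at 84.5, 79.5 and 77.2 CPM in PCBP1-OE. The groups overlapped because control replicate 3 lay above PCBP1-OE replicate 3. The log2 fold change was 0.14 (SE 0.06, 95% interval 0.016 to 0.26, adjusted p = 0.129, edgeR quasi-likelihood). This gene passed the test only without control replicate 3 (log2 fold change 0.19, adjusted p = 0.0182) among 14 alternatives.

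The mitochondrial members were Bnip3, a receptor for mitophagy, and Pdk1, the kinase that inhibits pyruvate dehydrogenase. Bnip3 was at 80.6, 81.9 and 77.0 CPM in controls and at 79.1, 77.9 and 85.8 CPM in PCBP1-OE. The groups overlapped fully apart from PCBP1-OE replicate 3, and the log2 fold change was 0.020 (SE 0.05, adjusted p = 0.835, edgeR quasi-likelihood). Pdk1 had the fewest counts of the members tested, 329 to 426 per library. It was at 16.8, 16.1 and 19.0 CPM in controls and at 18.3, 18 and 17.8 CPM in PCBP1-OE, so that all PCBP1-OE libraries fell within the range of the controls. The interval of its fold change was the widest of the 8 members, -0.13 to 0.26 around 0.061 on the log2 scale (SE 0.09, edgeR adjusted p = 0.705).

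The stress-responsive members were Ddit4, an inhibitor of mTOR signaling, and Ndrg1, a differentiation-related protein that is strongly induced by hypoxia. Ddit4 was at 106, 109 and 106 CPM in controls and at 108, 110 and 112 CPM in PCBP1-OE, and the groups overlapped. The difference was 0.043 on the log2 scale (SE 0.04, 95% interval -0.049 to 0.13, adjusted p = 0.544, edgeR quasi-likelihood). Ndrg1 was at 53.0, 53.7 and 51.7 CPM in controls and at 55.1, 54.0 and 53.8 CPM in PCBP1-OE. Here all PCBP1-OE libraries lay just above all controls, by 0.040 on the log2 scale (SE 0.05, edgeR adjusted p = 0.635). Groups did not overlap in 3 of 8 members (Vegfa, Kdm3a and Ndrg1), each with PCBP1-OE above control, and in 14.1% of all genes tested in that direction.

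Egln3, a prolyl hydroxylase that many cells induce in hypoxia, had 0 counts in each of the 3 controls and 1, 1 and 2 counts in PCBP1-OE. A count of 0 allows up to 3 counts, or 0.134 to 0.148 CPM in a control library, and the PCBP1-OE libraries at 0.0454 to 0.102 CPM were below that level. No fold change was drawn from these values, and the limit covers counting error only. At this depth, Egln3 was not detectable above counting noise in either group.

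**Figure D2:**
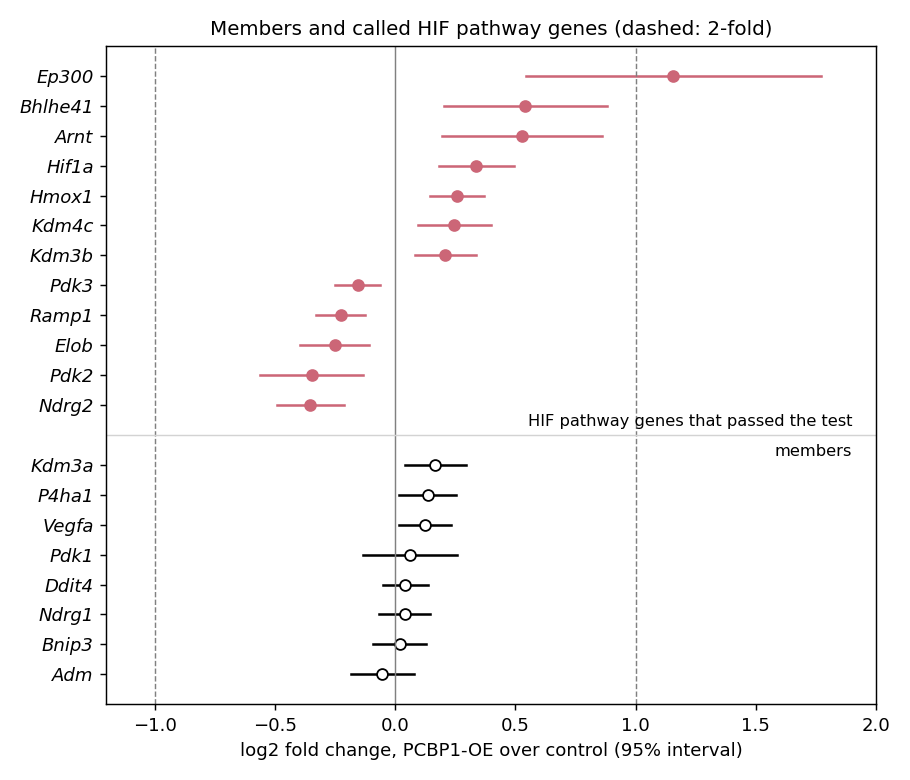
Log2 fold change of PCBP1-OE over control (point) with its 95% interval (line) for the 8 members (black, open) and for the 12 genes of the HIF pathway list that passed an adjusted p of 0.05 (red, filled); dashed lines mark a 2-fold change. All member intervals lie between -0.19 and 0.29, and Ep300 alone among the genes shown has a point beyond 2-fold.

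The wider HIF pathway was read from a list of 69 genes without the members, in which 58 had enough counts. An adjusted p of 0.05 was passed by 12 of 58, 7 higher and 5 lower in PCBP1-OE, where 4.45% of all genes tested were called higher and 5.00% lower. Its median log2 fold change was 0.032. The number called changed to 3, 0 and 17 when control replicate 1, 2 or 3 was left out. In these fits 1.92%, 0.375% and 22.3% of all genes tested were called. Without PCBP1-OE replicate 1, 2 or 3 the number was 3, 2 and 5, beside 1.32%, 1.06% and 5.42% of all genes. Calls lost by single genes in such fits are to be read beside these shares.

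Among the subunits of HIF itself, Hif1a and Arnt rose. Hif1a was at 74.6, 77.0 and 85.8 CPM in controls and at 111, 89.9 and 99.2 CPM in PCBP1-OE, with no overlap. The rise was 0.34 on the log2 scale (SE 0.07, adjusted p = 0.0179, edgeR quasi-likelihood), or 26.5% more mRNA. Without control replicates 1 or 2 or PCBP1-OE replicate 1 the adjusted p was 0.0855, 0.113 and 0.0942. Arnt was at 8.16, 6.85 and 11.2 CPM in controls and at 12.8, 13.2 and 11.8 CPM in PCBP1-OE. These groups also did not overlap, although control replicate 3 came close, and Arnt rose by 0.53 on the log2 scale (SE 0.15, edgeR adjusted p = 0.0488). Arnt kept its call in 1 of 6 fits with a library left out, that without control replicate 3 (0.0011), and the other fits gave 0.0792 to 0.198. Those other fits called 0.375% to 5.42% of all genes. The log2 fold change of Arnt was 0.38 to 0.75 over the 6 fits. The hypoxia-responsive alpha subunits Epas1 and Hif3a had 0 to 4 counts per library and were not tested. Arnt2, the neural counterpart of Arnt, was at -0.10 on the log2 scale (SE 0.22, adjusted p = 0.793).

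Of the 10 genes for hydroxylation and degradation of HIF, only Elob passed, and it fell. This count of 1 of 10 is near the background of 9.45% of all genes called. Elob, listed in the table as Tceb2, is an adaptor of the Vhl complex, and it was at 217, 202 and 179 CPM in controls and at 162, 162 and 179 CPM in PCBP1-OE. The third replicates of both groups met, and the log2 fold change was -0.25 (SE 0.07, adjusted p = 0.0362, edgeR quasi-likelihood). Elob passed in 9 of 14 alternatives, and its adjusted p was 0.136 to 0.179 when replicate 1 or 2 of either group was left out. Vhl, which recognizes hydroxylated HIF, differed by 0.040 on the log2 scale (SE 0.06, adjusted p = 0.705). Egln2, the Egln family member with a testable level here, was at 56.3, 52.9 and 50.1 CPM in controls and at 45.7, 48.5 and 49.3 CPM in PCBP1-OE. The groups did not overlap, but the difference of -0.15 on the log2 scale (SE 0.06) did not pass the test (edgeR adjusted p = 0.118). Hif1an, the asparaginyl hydroxylase of HIF, and the scaffold Cul2 had log2 fold changes of 0.11 and 0.081, with adjusted p of 0.587 and 0.308. The ring-finger subunit Rbx1 was at -0.14 (adjusted p = 0.0934) and the ubiquitin ligase adaptor Wsb1 at 0.14 (adjusted p = 0.0676), both by the same edgeR test. The log2 fold change was -0.058 for Eloc, 0.14 for Siah1 and 0.038 for Siah2, with adjusted p of 0.630, 0.290 and 0.773.

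Ep300, a histone acetyltransferase that HIF recruits as a coactivator, was at 4.33, 2.49 and 1.87 CPM in controls and at 4.22, 7.58 and 7.5 CPM in PCBP1-OE. The groups overlapped through PCBP1-OE replicate 1, and the gene passed the test with a log2 fold change of 1.16 (SE 0.28, adjusted p = 0.0281, edgeR quasi-likelihood). Its adjusted p was 0.149 when control replicate 2 was left out, and 0.114 and 0.0829 when PCBP1-OE replicate 2 or 3 was. The study reports an increase of Ep300 by RT-qPCR as well. Its paralog Crebbp (0.17 on the log2 scale, adjusted p = 0.15) and Cited2, which competes with HIF for these coactivators (0.10, adjusted p = 0.296), did not pass.

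Of 14 paralogs of the members tested, 1 was called higher and 3 lower, beside 4.45% and 5.00% of all genes tested. Kdm3b, the paralog of Kdm3a, rose by 0.21 on the log2 scale (SE 0.06, adjusted p = 0.0437, edgeR quasi-likelihood) from 44.5 ± 2.52 to 51.4 ± 1.64 CPM (SD, n = 3 each). Ndrg2 fell, with 73.2, 72.6 and 61.8 CPM in controls and 54.2, 55.5 and 52.8 CPM in PCBP1-OE. The fold change of Ndrg2 was -0.35 on the log2 scale (SE 0.06, edgeR adjusted p = 0.0105), beside 0.040 for Ndrg1, and the difference between these paralogs was not tested. Ndrg2 kept its call in 5 of 6 fits with a library left out, and without control replicate 2 its adjusted p was 0.0716. Pdk2 and Pdk3, further kinases of pyruvate dehydrogenase, fell as well. Pdk2 was at -0.35 on the log2 scale (SE 0.10, adjusted p = 0.0455) and Pdk3 at -0.16 (SE 0.04, adjusted p = 0.0422), each with all PCBP1-OE libraries below all controls. With 1 library left out, Pdk2 passed in 0 of 6 fits and Pdk3 and Kdm3b in 1 of 6, that without control replicate 3. Over these fits the log2 fold change was -0.38 to -0.29 for Pdk2, -0.17 to -0.13 for Pdk3 and 0.17 to 0.25 for Kdm3b. Upper-quartile scaling also ended the calls of Pdk2 (adjusted p = 0.0572) and Pdk3 (0.0668), and testing without a filter on low counts ended that of Pdk3 (0.0649). Bnip3l, a mitophagy receptor like Bnip3, was at -0.071 (adjusted p = 0.371), and P4ha2 was at -0.16 (adjusted p = 0.0565).

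In a list of receptors of the member ligands and their accessory proteins, 1 of 6 genes tested passed, and it was lower. With 5.00% of all genes called lower and so few genes listed, this count is near the background. The gene was Ramp1, an accessory protein of the calcitonin receptor-like receptor that serves mainly a ligand other than adrenomedullin. Ramp1 was at 154, 155 and 145 CPM in controls and at 126, 127 and 135 CPM in PCBP1-OE, with no overlap. Its difference on the log2 scale was -0.23 (SE 0.05, adjusted p = 0.0168, edgeR quasi-likelihood), and it passed in 9 of 14 alternatives, with an adjusted p of 0.0788 to 0.136 when replicate 1 or 2 of either group was left out. Ramp2, which pairs with the same receptor to bind adrenomedullin, was at -0.33 (SE 0.11, adjusted p = 0.0779), while Calcrl, the receptor itself, rested on 5 to 20 counts per library. Kdr, the main signaling receptor of Vegfa, had 0 to 4 counts per library, and Flt1, Nrp1 and Nrp2 did not pass (adjusted p = 0.350 to 0.679).

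The further HIF targets outside glycolysis held 3 genes called higher and none called lower among 22 tested by edgeR's quasi-likelihood test, beside 4.45% of all genes called higher and 5.00% called lower. At an unadjusted p under 0.05 there were 5 of 22, a smaller share than the 28.4% of all genes tested. Hmox1, the enzyme that degrades heme, rose from 898 ± 49.2 to 1070 ± 50 CPM (SD, n = 3 each), by 0.26 on the log2 scale (SE 0.05, edgeR adjusted p = 0.0138). Bhlhe41, a transcriptional repressor of the circadian clock, was at 6.78, 6.52 and 10.2 CPM in controls and at 11.8, 11.5 and 11 CPM in PCBP1-OE (a log2 difference of 0.54, SE 0.16, adjusted p = 0.0476). Kdm4c, a histone demethylase, rose by 0.25 on the log2 scale (SE 0.07, adjusted p = 0.0443). In Bhlhe41, as in Kdm3a and Arnt, control replicate 3 was the highest control. The same held for Hif1a, Hmox1, Kdm3b, Kdm4c, P4ha1 and Pdk1. Control replicate 3 was the lowest control in Elob, Ndrg2 and Ramp1, which were called lower. In Pdk2, Pdk3 and Ep300 it was instead the control farthest from PCBP1-OE. With 1 library left out, Bhlhe41 and Kdm4c passed only without control replicate 3 and Hmox1 in 4 of 6 fits (not without control replicate 2, adjusted p = 0.0701, or PCBP1-OE replicate 2, 0.0582). Over these fits the log2 fold change was 0.43 to 0.78 for Bhlhe41, 0.21 to 0.31 for Kdm4c and 0.22 to 0.29 for Hmox1. Car9, the carbonic anhydrase often read as a marker of HIF activity, was at 174 ± 13 CPM in controls and 161 ± 10.7 CPM in PCBP1-OE (SD, n = 3 each), with a log2 fold change of -0.11 (adjusted p = 0.274, same edgeR test). Ankrd37, likewise an established target, had a log2 fold change of -0.027 (adjusted p = 0.949), and Epo had 1 count in all libraries together.

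**Figure D3:**
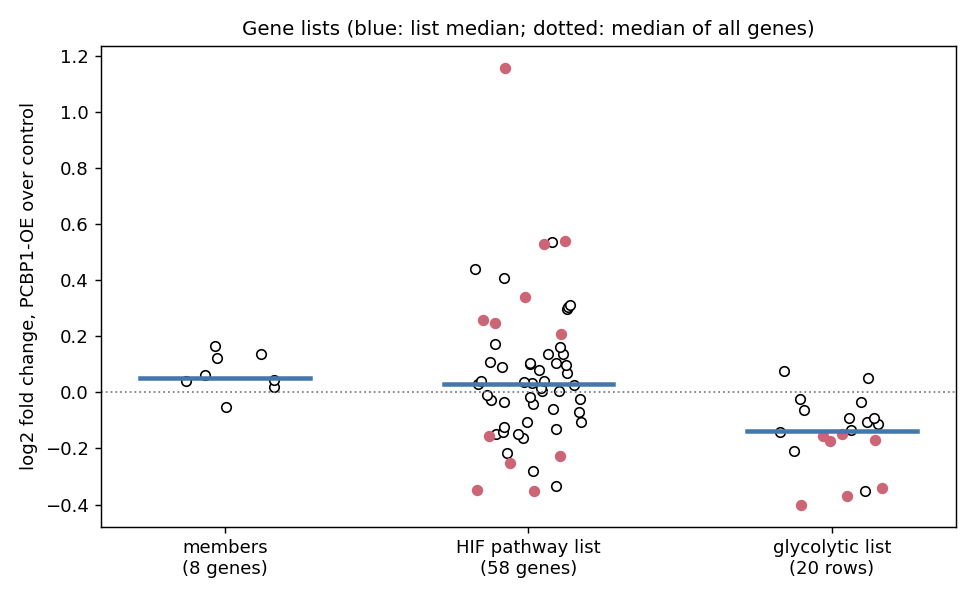
Log2 fold change of PCBP1-OE over control for each gene tested in the members, the HIF pathway list and the glycolytic list; red filled points passed an adjusted p of 0.05, blue bars are list medians and the dotted line is the median of all genes tested. The members lie between -0.0525 and 0.17 with no red point, and the red points of the glycolytic list all lie below 0.

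As a comparison within the HIF targets, a list of glycolytic enzymes and of transporters for glucose and lactate was read, and 19 of 21 listed genes had enough counts, in 20 rows because Pkm has 2. Of these rows 7 were called, all lower in PCBP1-OE, where 5.00% of all genes tested were called lower, and the median log2 fold change was -0.14. Aldoc, an aldolase, was at -0.40 on the log2 scale (SE 0.07, adjusted p = 0.0087, edgeR quasi-likelihood), and Eno1, an enolase, one of -0.17 (SE 0.04, adjusted p = 0.0222). The Pkm row called lower lies on chromosome 20 and is separate from the Pkm row on chromosome 8 (log2 fold change -0.34 against -0.090). It is uncertain, since the sequences of the 2 rows and the placement of reads between them were not examined. That row on chromosome 20 lost its call when replicate 1 or 2 of either group was left out (adjusted p = 0.0799 to 0.105). Without control replicate 2 the adjusted p was 0.0664 for Aldoc and 0.0815 for Eno1, and without PCBP1-OE replicate 1 or 2 it was 0.0725 or 0.108 for Eno1. The number called was 4 under upper-quartile scaling, beside 8.57% of all genes. It was 3, 0 and 12 without control replicate 1, 2 or 3, beside 1.92%, 0.375% and 22.3% of all genes. Without PCBP1-OE replicate 1, 2 or 3 it was 1, 1 and 6, beside 1.32%, 1.06% and 5.42%. In each fit with a library left out, 17 or 18 of the 20 rows had a log2 fold change below 0. Thus 0 of 8 members and 7 of 20 glycolytic rows were called on the same libraries, and the difference between the lists was not tested.

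**Figure D4:**
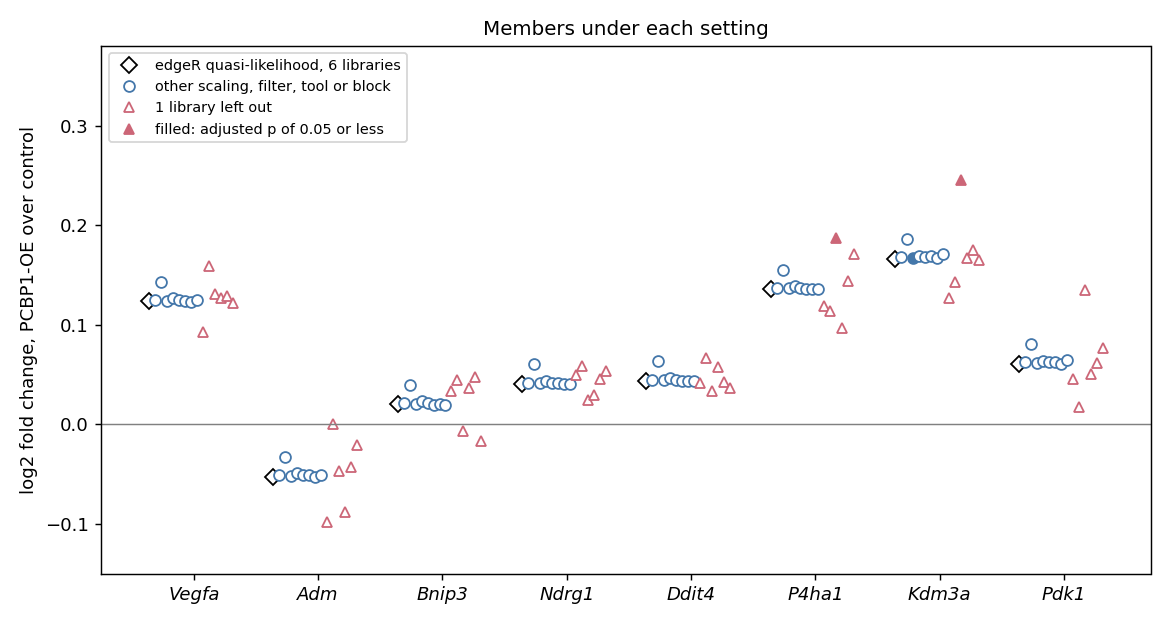
Log2 fold change of PCBP1-OE over control for each member under edgeR's quasi-likelihood test on all 6 libraries (diamond), under other scalings, filters, tools or the replicate block (circles) and with 1 library left out (triangles); filled symbols have an adjusted p of 0.05 or less. Filled symbols occur in Kdm3a (without control replicate 3 and without a filter on low counts) and P4ha1 (without control replicate 3), and 2 of the 8 members, Adm and Bnip3, cross 0 when a library is left out.

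The longer a gene, the higher its fold change tended to be in these libraries, and the members were set against that trend, an observation made after the data were seen. Genomic span was taken from RefSeq (GRCr8) by symbol for 84.7% of the genes tested, which were split by it into 5 groups of nearly equal size. The median log2 fold change rose in each step, from -0.088 in the shortest group to -0.034, -0.0020, 0.038 and 0.082 in the longest. The shortest group held 51 genes called higher and 229 called lower, and the longest 178 and 22. P4ha1, which spans 111 kb, lay in the longest group, Kdm3a (44.3 kb) and Ndrg1 (41.4 kb) in the one before it, and Ddit4 (2.10 kb) in the shortest. Relative to the median of its own group, the log2 fold change was 0.16 higher for Vegfa, 0.13 for Ddit4 and Kdm3a, 0.063 for Pdk1, 0.054 for Bnip3, 0.053 for P4ha1 and 0.0023 for Ndrg1, while that of Adm was -0.051 from it. The part of gene length in the fold changes of the members, or of the pathway and glycolytic lists, was not tested. The shares of all genes called higher or lower, given beside those lists, take no account of span.

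**Figure D5:**
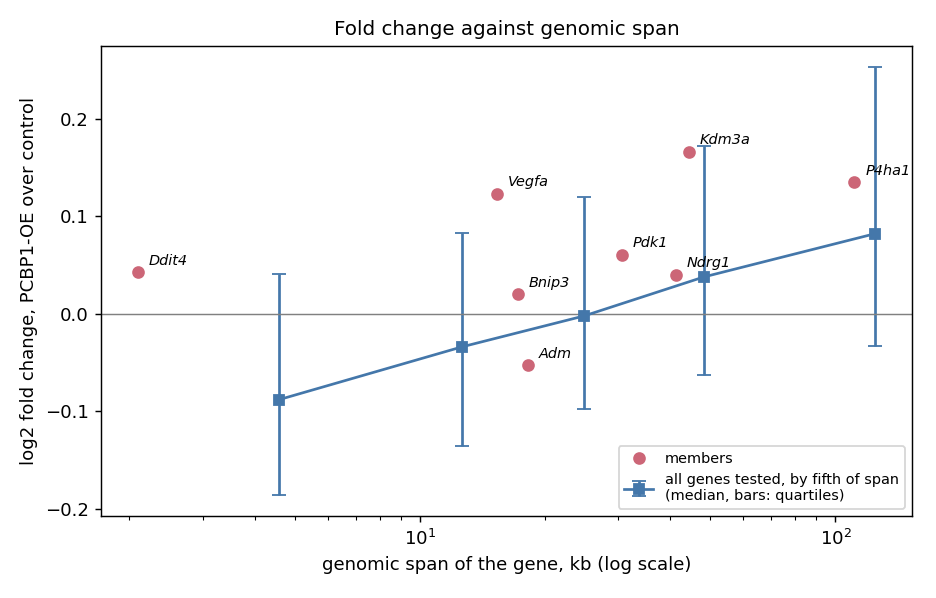
Log2 fold change of PCBP1-OE over control against genomic span in kb (log scale) for the members (red) and for all genes tested with a span, in 5 groups by span (blue squares: median; bars: quartiles). The blue medians climb from -0.088 to 0.082, and 7 of the 8 members lie above the median of their group.

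The profile of Kdm3a over the 6 libraries was compared with that of every other gene tested, as the root mean square difference of centered log2 CPM. Pls3, an actin-bundling plastin, was nearest at 0.0138, followed by Dlg1, a scaffold of cell junctions, at 0.0151 and Npepo, an aminopeptidase, at 0.0199, beside a median of 0.171 over all genes. Pls3 was at 128, 134 and 153 CPM in controls and at 153, 152 and 154 CPM in PCBP1-OE, with control replicate 3 again level with the PCBP1-OE libraries. As many as 1911 genes lay within 0.1 of Kdm3a.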

How the data were processed

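The authors deposited raw counts per gene for 6 libraries, 3 per group, matched to groups by their titles. Per the study's methods, FASTX-Toolkit trimmed the reads, TopHat2 placed them on the rat build Rnor_6.0, and uniquely mapped reads were counted per gene. The labels' processing notes name bcl2fastq, TopHat2, edgeR and GRCh38, a human build, whereas the gene IDs are those of rat. Which tool counted, with which annotation and whether by strand, is not given in the sources used here, which makes counts of overlapping genes uncertain. The labels and the methods also name different library kits.

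Counts were tested across all genes with edgeR 4.0.16 (R 4.3.3) by its quasi-likelihood test, after TMM scaling and a filter on low counts (edgeR's filterByExpr, with a minimum count of 10 and a minimum total of 15), following a check on simulated data. The alternatives tried were other scalings (RLE, upper-quartile), no filter, at least 1 CPM in 3 libraries, DESeq2 1.42.0, limma-voom (limma 3.58.1), edgeR's exact test, a replicate block and each library left out. All 10 members are named, with every gene of the pathway list at an adjusted p of 0.05 or less, its subunit and degradation genes, and up to 3 glycolytic genes; others named were chosen after their values were seen. The members and lists were chosen with earlier results of these data known. Symbols absent from the table were matched by RefSeq synonym, except for members. The study calls the libraries biological replicates but does not say whether they came from separate cultures, so p-values measure the spread between these libraries, which may be partly technical.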

Additional observations from a re-analysis of the deposited data

How the results depend on the processing

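The median log2 fold change of the 8 members stayed between 0.048 and 0.082 in all 14 alternatives. The number of members called was 0 except in the following fits. Without a filter it was 1 (Kdm3a, edgeR quasi-likelihood adjusted p = 0.0303), beside 10.1% of all genes. Without control replicate 3 it was 2, beside 22.3% of all genes. The cause was not tested. Adm ranged from -0.0981 to 0.0007 and Bnip3 from -0.0167 to 0.0472 with a library left out, so their signs are not resolved. With a library left out, the pathway list had 0 to 17 genes called and the glycolytic list 0 to 12, beside 0.375% to 22.3% of all genes. Upper-quartile scaling raised the median of all genes to 0.023. It left 4 glycolytic rows called, beside 8.57% of all genes. Same-numbered libraries of the 2 groups did not deviate together (r = -0.078 to -0.043; 0 of 6 correlated best with their own number), so the numbers were not taken as pairs. With the replicate block 0 members, 0 pathway genes and 0 glycolytic rows were called, and 16 genes in all. Depth limits Egln3 and Kdr.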
